A study of Mus musculus with 16 samples.

Results

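The expression of 10 genes of the glucocorticoid response was followed in the cortex of amyloid-bearing mice fed rapamycin or vehicle. The genes were matched by symbol in the deposited count table, which lists 47593 genes, and all 10 were found. They comprise 8 genes known to be induced by glucocorticoids (Fkbp5, Sgk1, Tsc22d3, Pdk4, Zbtb16, Plin4, Sult1a1 and Cdkn1a) and the 2 corticosteroid receptor genes Nr3c1 and Nr3c2. They were chosen by their counts in these same libraries, with the differences by diet and by batch already known, so those values are given here as a description, without a p-value for any of the 10 genes in either contrast.

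Cortical RNA was sequenced from 16 5xFAD samples, with 4 in each of the groups FC (female, control diet), FR (female, rapamycin diet), MC (male, control diet) and MR (male, rapamycin diet). Every group carries the 5xFAD transgenes under the neuronal Thy1 promoter, so that amyloid plaques form, and no wild-type group was analysed here. The control diet held the encapsulation carrier without drug and is called vehicle below. Both diets started at 2 months of age and tissue was taken at 5 months, after behavioral tests that included fear conditioning. The labels give neither the hour at which tissue was taken nor a hormone level. Libraries are named by group and by the replicate number of the labels, as in FR1. The labels place replicates 1 to 3 in batch 1 (11 libraries, with FR1 and FR2 for the FR group) and the other 5 libraries (FC4, FR4, FR5, MC4 and MR4) in batch 2. The text of the study speaks of pooled cortical samples while the labels list numbered replicates, so whether a library is 1 mouse was not settled, and p-values measure the spread between libraries.

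Glucocorticoids are adrenal steroid hormones, corticosterone in the mouse, that are released in a daily rhythm and in response to stress. They enter cells and bind the glucocorticoid receptor (Nr3c1) or the mineralocorticoid receptor (Nr3c2), which leave a chaperone complex, move to the nucleus and bind DNA. Among the genes they raise is Fkbp5, whose product FKBP51 joins the chaperone complex and lowers the affinity of the receptor for hormone. FKBP51 belongs to the FKBP family, the immunophilins that bind rapamycin.

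Sequencing gave 16393501 to 20593089 counted read pairs a library. Levels are given as CPM (a gene's read pairs relative to the size of the library), scaled with the TMM factors of edgeR, and fold changes as log2 differences with their standard error (SE) from edgeR's quasi-likelihood fit with sex, batch and diet as terms. A gene is called when the Benjamini-Hochberg adjusted p over the 16553 genes that passed the low-count filter is under 0.05, and all 10 members passed this filter. The library labelled MR4 had 512 CPM of Xist, the RNA of the inactive X chromosome, and 0 read pairs on 4 genes of the Y chromosome. Each of the 7 other libraries labelled male had at most 1.01 CPM of Xist and at least 1915 Y-linked read pairs. The mitochondrially encoded share of read pairs was between 6.88% and 6.99% in FR1, FR2 and MR2 and between 2.64% and 5.47% in the other 13 libraries. The slope of expression on log2 exon length, a sign of how far long transcripts are represented, was between -0.127 and -0.121 in the same 3 libraries and between -0.0333 and 0.1005 in the others. Both measures differed by diet, with a mean slope of 0.0442 with vehicle and -0.0442 with rapamycin, and mean shares of 3.81% and 5.34%. A fit with either as a further term can thus also take up part of a difference by diet. The tissue was labelled cortex, and the cortical glutamatergic markers Slc17a7, Camk2a, Neurod6, Tbr1 and Nrgn summed to between 4742 and 7718 CPM.

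In vehicle-fed mice the receptor and the induced genes were all detected. Per kilobase of exon, which makes genes comparable, Nr3c1 had the highest level, 18.3 ± 2.48 CPM per kb (SD, n = 8). Tsc22d3 followed with 14.7 ± 2.82 CPM per kb and Sgk1 with 14.3 ± 4.52 CPM per kb. Cdkn1a (9.76 ± 3.59), Zbtb16 (8.36 ± 1.95) and Nr3c2 (6.35 ± 0.723 CPM per kb) formed the middle of the order. Among these 6 genes, neighbours in the order overlapped over the 8 libraries. Fkbp5 came next with 4.67 ± 0.311 CPM per kb, below all 8 values of Nr3c2, and overlapped Sult1a1 (4.11 ± 0.801), which overlapped Pdk4 (3.07 ± 0.305 CPM per kb). Plin4 was lowest with 0.667 ± 0.208 CPM per kb, below all 8 values of Pdk4. Cortical samples hold many cell types, so fewer cells of a type and less RNA per cell cannot be told apart in any of the values below.

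**Figure D1:**
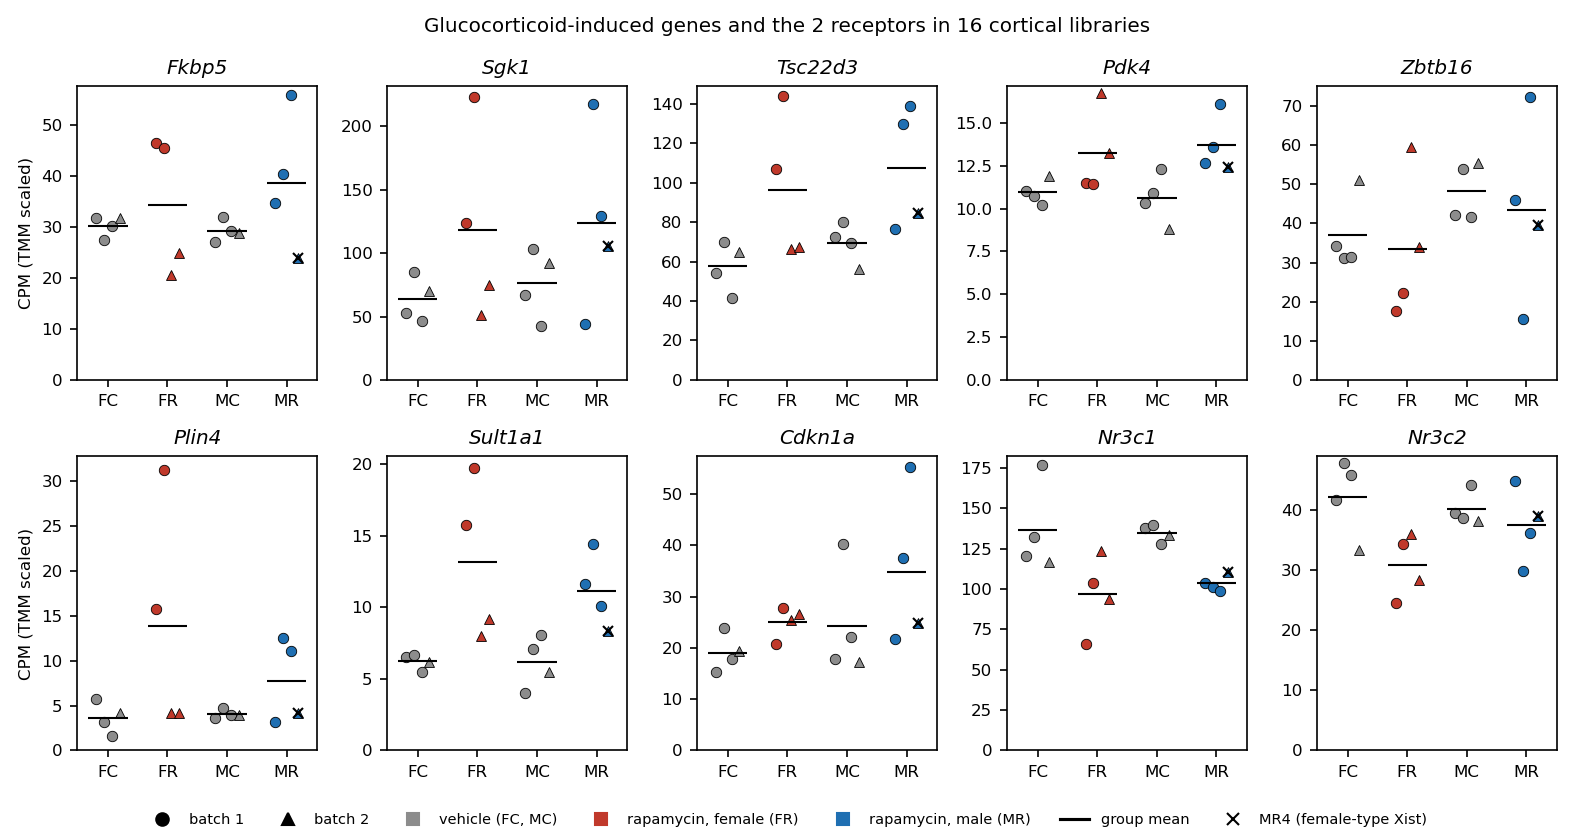
Level of each of the 10 genes in every library, in CPM on axes that start at 0, by group; circles are batch 1, triangles batch 2, lines the mean of the 4 libraries of a group, and the cross marks MR4. In FR1, FR2, MR2 and MR3 Fkbp5 lay between 40.3 and 55.8 CPM, while the 3 rapamycin libraries of batch 2 lay between 20.5 and 24.9 CPM.

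Fkbp5 (chromosome 17, 28399095 to 28517524 on GRCm38) had the smallest SD for its mean of the 10 genes in vehicle-fed mice, 29.7 ± 1.98 CPM (SD, n = 8), against 36.5 ± 12.7 CPM with rapamycin. In FC it had 31.7, 27.4, 30.2 and 31.7 CPM in replicates 1 to 4, and in MC 26.9, 31.9, 29.1 and 28.7 CPM. In FR it had 46.4 and 45.5 CPM in the batch 1 libraries FR1 and FR2 but 20.5 and 24.9 CPM in the batch 2 libraries FR4 and FR5. In MR it had 34.6, 40.3 and 55.8 CPM in the batch 1 libraries and 23.8 CPM in MR4. All 5 rapamycin libraries of batch 1 thus lay above all 6 vehicle libraries of that batch, and all 3 rapamycin libraries of batch 2 lay below both vehicle libraries of theirs. Of the 16553 genes tested, 7 (0.0423%) had rapamycin above vehicle in batch 1 and below it in batch 2, without overlap in either, and Fkbp5 is among them. Fkbp5 was chosen with these values known, so nothing can be drawn from its place among the 7. A gap between groups in batch 2, with 3 libraries against 2, is common, since 13.3% of all genes had rapamycin above vehicle without overlap there and 12.9% had it below. In batch 1 these shares were 2.22% and 2.37%.

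The log2 fold change of Fkbp5, rapamycin over vehicle, was 0.60 (SE 0.11) in batch 1, -0.39 (SE 0.17) in batch 2 and 0.29 (SE 0.14) over both. The difference between the batches in the diet effect, batch 1 minus batch 2, was called in 0 of the 10 members and in 4 of all genes (0.0242%) by edgeR, with an unadjusted p under 0.05 in 2 members. Nothing can be drawn from these member counts, since the genes were picked with diet and batch known. The highest Fkbp5 value of all was that of MR3, which had 3.75% mitochondrial read pairs and an exon length slope of 0.012, both within the range of the vehicle libraries. The next 3 were those of FR1, FR2 and MR2, the libraries with the highest mitochondrial share and the lowest slope. With the exon length slope of each library as a further term the log2 fold change of Fkbp5 was 0.29, with the mitochondrial share 0.31 and without FR1, FR2 and MR2 0.15.

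Sgk1 (chromosome 10, 21882184 to 21999903), a kinase that glucocorticoids and mineralocorticoids induce and that acts on ion channels and transporters in the kidney and the brain, spread widely among the rapamycin libraries. Vehicle libraries ran from 42.7 to 104 CPM with a median of 68.5 CPM. Rapamycin libraries ran from 44.1 CPM in MR1 to 223 CPM in FR2, with a median of 115 CPM. FR2 and MR2 (217 CPM) stood far above the rest, MR3 (129 CPM) and FR1 (124 CPM) came next, and MR1, FR4 and FR5 lay within the vehicle range. Its log2 fold change, rapamycin over vehicle, was 1.155 (SE 0.33) in batch 1 and -0.06 (SE 0.50) in batch 2. Without FR1, FR2 and MR2 it was 0.08, against 0.78 in all 16 libraries.

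The glucocorticoid receptor binds, as a pair, to inverted repeats of a short half-site, so the promoters of the members were searched for these letters. RefSeq start-site windows (GRCm38.p6, 250 bases before to 50 after a start site) were at hand for 8 of the 10 members, with 16 windows, and those of Zbtb16 and Nr3c1 were not. The half-site AGAACA was looked for on both strands and stood in 5 windows of 3 members (Sgk1, Tsc22d3 and Sult1a1), where 18.97% of all 32851 mouse windows hold it. The paired form GAACANNNTGTTC, which contains parts of 2 half-sites and reads the same on both strands, stood in 1 window of Sgk1 and in 0.0578% of all windows. A stretch of 150 bases is shown for 2 members whose values are set side by side here, Sgk1 at chr10:21993640-21993789 (plus strand, upstream of an internal start site) and Sult1a1 at chr7:126676519-126676668 (minus strand). Capitals mark the half-sites on either strand and, in Sgk1, the paired form, which begins 188 bases before the start site.
Sgk1: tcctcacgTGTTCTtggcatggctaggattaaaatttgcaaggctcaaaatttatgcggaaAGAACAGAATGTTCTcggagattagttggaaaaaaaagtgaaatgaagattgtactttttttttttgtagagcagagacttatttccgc
Sult1a1: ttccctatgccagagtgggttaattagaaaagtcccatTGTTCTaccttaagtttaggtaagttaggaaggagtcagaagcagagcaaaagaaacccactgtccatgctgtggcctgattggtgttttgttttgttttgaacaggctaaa
A match is a description of the letters and says nothing on binding in these samples.

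Tsc22d3 (chromosome X, 140539528 to 140600659) encodes GILZ, a leucine zipper protein that carries part of the anti-inflammatory action of glucocorticoids. Vehicle libraries ran from 41.6 to 79.9 CPM with a median of 67.2 CPM, and rapamycin libraries from 66.6 to 144 CPM with a median of 95.9 CPM. The 4 highest values were again those of FR2 (144 CPM), MR3 (139 CPM), MR2 (130 CPM) and FR1 (107 CPM), and MR4 (84.6 CPM) was also above every vehicle library. In log2 terms rapamycin lay above vehicle by 0.88 (SE 0.16) in batch 1 and 0.28 (SE 0.25) in batch 2, where the rapamycin libraries (66.6 to 84.6 CPM) lay above the vehicle libraries (56.1 and 64.9 CPM). It stayed positive, at 0.46, without FR1, FR2 and MR2.

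Plin4 (chromosome 17, 56100591 to 56109803), a perilipin that coats lipid droplets, had the largest fold change of the 10 genes and the lowest vehicle level. The FC libraries had 5.72, 3.17, 1.58 and 4.21 CPM and the MC libraries 3.57, 4.75, 3.92 and 3.91 CPM. In FR it had 15.8 and 31.3 CPM in FR1 and FR2, but 4.20 and 4.16 CPM in FR4 and FR5. In MR it had 3.20 CPM in MR1, 12.5 CPM in MR2, 11.04 CPM in MR3 and 4.12 CPM in MR4. The same 4 rapamycin libraries that were high for Fkbp5 were thus high for Plin4, and the other 4 lay within the vehicle range. By batch the log2 fold change was 1.90 (SE 0.38) in batch 1, -0.03 (SE 0.59) in batch 2 and 0.48 without FR1, FR2 and MR2. An exon of Plin4 overlaps a gene on the opposite strand, Hdgfrp2, and strand was not used in counting, so read pairs in the overlap were left out. Nr3c2 overlaps Gm10649 in the same way.

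Sult1a1 (chromosome 7, 126672865 to 126676432), a sulfotransferase that conjugates phenols and steroids, was the member whose diet groups stood apart in the same direction in both batches. Vehicle libraries ran from 4.04 to 8.07 CPM with a median of 6.34 CPM, and rapamycin libraries from 8.02 to 19.7 CPM with a median of 10.8 CPM. Only the lowest rapamycin library, FR4 (8.02 CPM), lay below a vehicle library, MC3 (8.07 CPM), and these are of different batches. Within batch 1 the rapamycin libraries (10.1 to 19.7 CPM) lay above the vehicle libraries (4.04 to 8.07 CPM), and within batch 2 they did so too (8.02 to 9.20 CPM against 5.48 and 6.19 CPM). A gap in this direction in each batch was found in 0.743% of all genes, and nothing can be drawn from that share, since Sult1a1 was chosen with these values known. Rapamycin over vehicle, the log2 fold change was 1.18 (SE 0.17) in batch 1, 0.52 (SE 0.27) in batch 2 and 0.67 without FR1, FR2 and MR2. One exon overlaps the gene Sgf29 on the opposite strand.

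Pdk4 (chromosome 6, 5483351 to 5496309), the kinase that turns down pyruvate dehydrogenase and so spares glucose, had small differences of the same sign in both batches. Vehicle libraries ran from 8.84 to 12.3 CPM with a median of 10.8 CPM, and rapamycin libraries from 11.4 to 16.8 CPM with a median of 12.96 CPM. The highest values were those of FR4 (16.8 CPM) and MR3 (16.1 CPM), not those of FR1 and FR2, which had 11.5 and 11.4 CPM. Its log2 fold change was 0.25 (SE 0.13) in batch 1 and 0.45 (SE 0.19) in batch 2.

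Cdkn1a (chromosome 17, 29090979 to 29100722), the cell cycle inhibitor p21, ran from 15.2 to 40.2 CPM with vehicle (median 18.6 CPM) and from 20.8 to 55.3 CPM with rapamycin (median 26.0 CPM). The highest value of each diet was in a male library of batch 1, MC2 and MR3. In batch 2 the rapamycin libraries (24.8 to 26.5 CPM) lay above the vehicle libraries (17.2 and 19.4 CPM), while in batch 1 the groups overlapped. The log2 fold change was 0.47 (SE 0.24) in batch 1 and 0.54 (SE 0.37) in batch 2.

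Zbtb16 (chromosome 9, 48654311 to 48835945), the zinc finger transcription factor PLZF, was the induced member with a lower mean under rapamycin. Vehicle libraries ran from 31.2 to 55.4 CPM with a median of 41.9 CPM. Rapamycin libraries ran from 15.5 to 72.3 CPM with a median of 36.8 CPM, so that they spanned the vehicle range on both sides. The 3 lowest of all libraries were MR2 (15.5 CPM), FR1 (17.7 CPM) and FR2 (22.2 CPM), and the highest was MR3 (72.3 CPM). The direction depended on these libraries, with a log2 fold change of -0.23 (SE 0.23) over all 16 and 0.16 without FR1, FR2 and MR2. With the exon length slope of each library as a further term it was 0.59, and with the mitochondrial share 0.49. In MR3 Zbtb16, Fkbp5, Sgk1, Tsc22d3, Plin4, Sult1a1, Pdk4 and Cdkn1a each lay above the mean of the vehicle libraries, whereas in FR1, FR2 and MR2 Zbtb16 lay below every vehicle library.

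**Figure D2:**
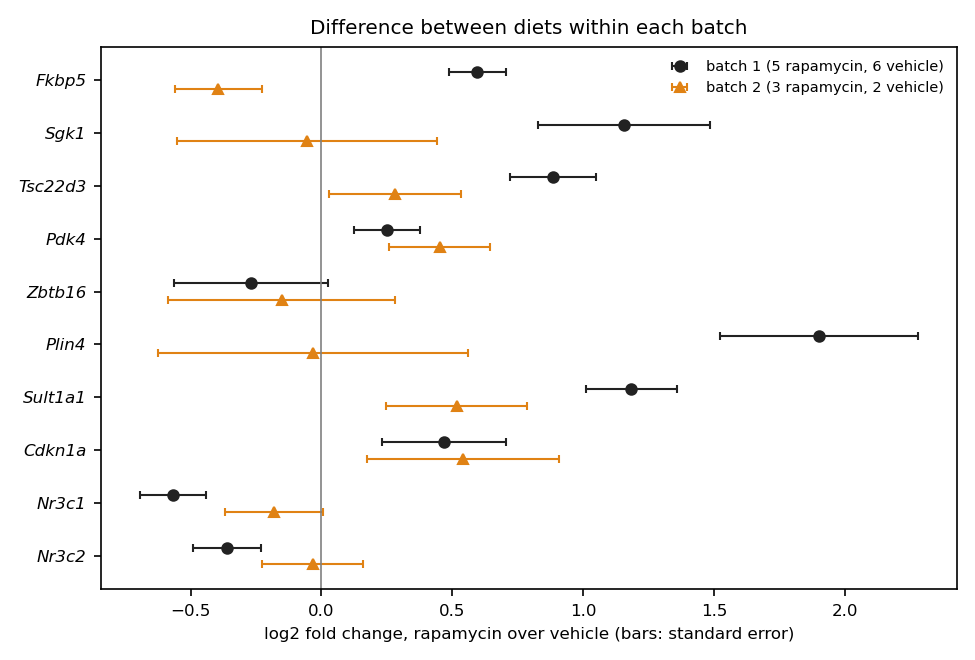
Log2 fold change of each of the 10 genes, rapamycin over vehicle, estimated within batch 1 (circles) and within batch 2 (triangles) in one edgeR fit, with standard errors as bars. Fkbp5 lay at 0.60 in batch 1 and at -0.39 in batch 2, and Plin4 at 1.90 and -0.03, while Pdk4, Sult1a1 and Cdkn1a were positive in both.

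Both receptor genes had lower means with rapamycin. Nr3c1 (chromosome 18, 39410545 to 39491301), the glucocorticoid receptor, had 120, 133, 177 and 117 CPM in FC and 138, 140, 128 and 133 CPM in MC. In FR it had 66.2, 104, 124 and 93.6 CPM and in MR 104, 101, 99.1 and 110 CPM. In batch 1 all 5 rapamycin libraries lay below all 6 vehicle libraries, while in batch 2 FR4 (124 CPM) lay above FC4 (117 CPM). The log2 fold change was -0.57 (SE 0.13) in batch 1 and -0.18 (SE 0.19) in batch 2, and -0.34 without FR1, FR2 and MR2. With the exon length slope as a further term it was -0.20, and with the mitochondrial share -0.47, against -0.45 with neither.

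Nr3c2 (chromosome 8, 76899442 to 77245012), the mineralocorticoid receptor, ran from 33.4 to 47.7 CPM with vehicle (median 40.5 CPM) and from 24.5 to 44.7 CPM with rapamycin (median 35.1 CPM). The ranges overlapped in both batches. This gave a log2 fold change of -0.36 (SE 0.13) in batch 1, -0.03 (SE 0.19) in batch 2 and -0.26 (SE 0.11) over both. It was -0.01 with the exon length slope as a further term, -0.13 with the mitochondrial share and -0.08 without FR1, FR2 and MR2. The ratio of Nr3c1 to Nr3c2 per exon length, which compares the receptors within a library, was 2.89 ± 0.348 with vehicle and 2.59 ± 0.340 with rapamycin (SD, n = 8 each), a difference smaller than the SD of either. It ran from 2.42 to 3.36 with vehicle and from 2.03 to 3.00 with rapamycin, so the diets overlapped over both batches. They also overlapped in batch 1, with 2.42 to 3.36 against 2.03 to 2.95. In batch 2 both vehicle libraries had 3.05 and the rapamycin libraries ran from 2.47 to 3.00, below them. Such a gap is common in batch 2, where 12.9% of all genes had rapamycin below vehicle without overlap.

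Of the 10 genes 4 were called between the diets, Tsc22d3, Plin4 and Sult1a1 as higher and Nr3c1 as lower, beside 13.3% of all genes tested (6.46% higher and 6.86% lower). Nothing can be drawn from this count, since the genes were picked with this contrast known. In batch 1 the count was 6, beside 6.33% of all genes, and in batch 2 it was 0, beside 0.0302%. The 0 in batch 2 is an edgeR count, and 2 members had an unadjusted p under 0.05 there. The median log2 fold change of the 8 induced members was 0.59 over both batches, 0.74 in batch 1 and 0.12 in batch 2, and the medians over all genes were 0.02, 0.01 and 0.03. No member had its 8 rapamycin libraries all above or all below its 8 vehicle libraries, where 0.127% of all genes lay fully above and 0.362% fully below.

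The batches also differed in level. Over both diets, batch 2 lay below batch 1 by 0.96 on the log2 scale (SE 0.42) for Plin4, by 0.49 (SE 0.17) for Sult1a1, by 0.48 (SE 0.15) for Fkbp5 and by 0.40 (SE 0.16) for Tsc22d3, and above it by 0.54 (SE 0.26) for Zbtb16. Of the 10 genes 2 were called between the batches, beside 35.5% of all genes, and nothing can be drawn from this count, since the genes were picked with the batches known. In vehicle libraries alone the batches lay close for Fkbp5, with means of 29.5 CPM in batch 1 and 30.2 CPM in batch 2, and for Plin4, with 3.78 and 4.06 CPM. In rapamycin libraries the means were 44.5 and 23.1 CPM for Fkbp5 and 14.8 and 4.16 CPM for Plin4. Batch 2 holds 5 libraries, of which 1 is MR4, and the labels do not say what distinguishes the batches.

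In some libraries the values moved together with the mitochondrial share and the exon length slope, and RNA quality itself was not measured here. FR1, FR2 and MR2 were the 3 libraries with over 6% mitochondrial read pairs, and they were among the 4 highest for Fkbp5, Tsc22d3 and Plin4 and the 3 lowest for Zbtb16. With those 3 left out, the log2 fold changes of Fkbp5, Sgk1 and Plin4 were 0.15, 0.08 and 0.48, while those of Pdk4, Sult1a1 and Cdkn1a were 0.44, 0.67 and 0.59. All 3 are rapamycin libraries of batch 1, so without them FR keeps only the batch 2 libraries FR4 and FR5. Within batch 2 the log2 fold changes of these genes were -0.39, -0.06 and -0.03, and 0.45, 0.52 and 0.54. The mitochondrial share of the 3 and the changed mix of batches thus cannot be told apart here. With 13 libraries, 1 gene of all those tested was called, so calls cannot be compared. MR3, which was not one of the 3, was nevertheless high for Fkbp5 (55.8 CPM), Sgk1 (129 CPM), Tsc22d3 (139 CPM), Plin4 (11.04 CPM) and Cdkn1a (55.3 CPM).

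**Figure D3:**
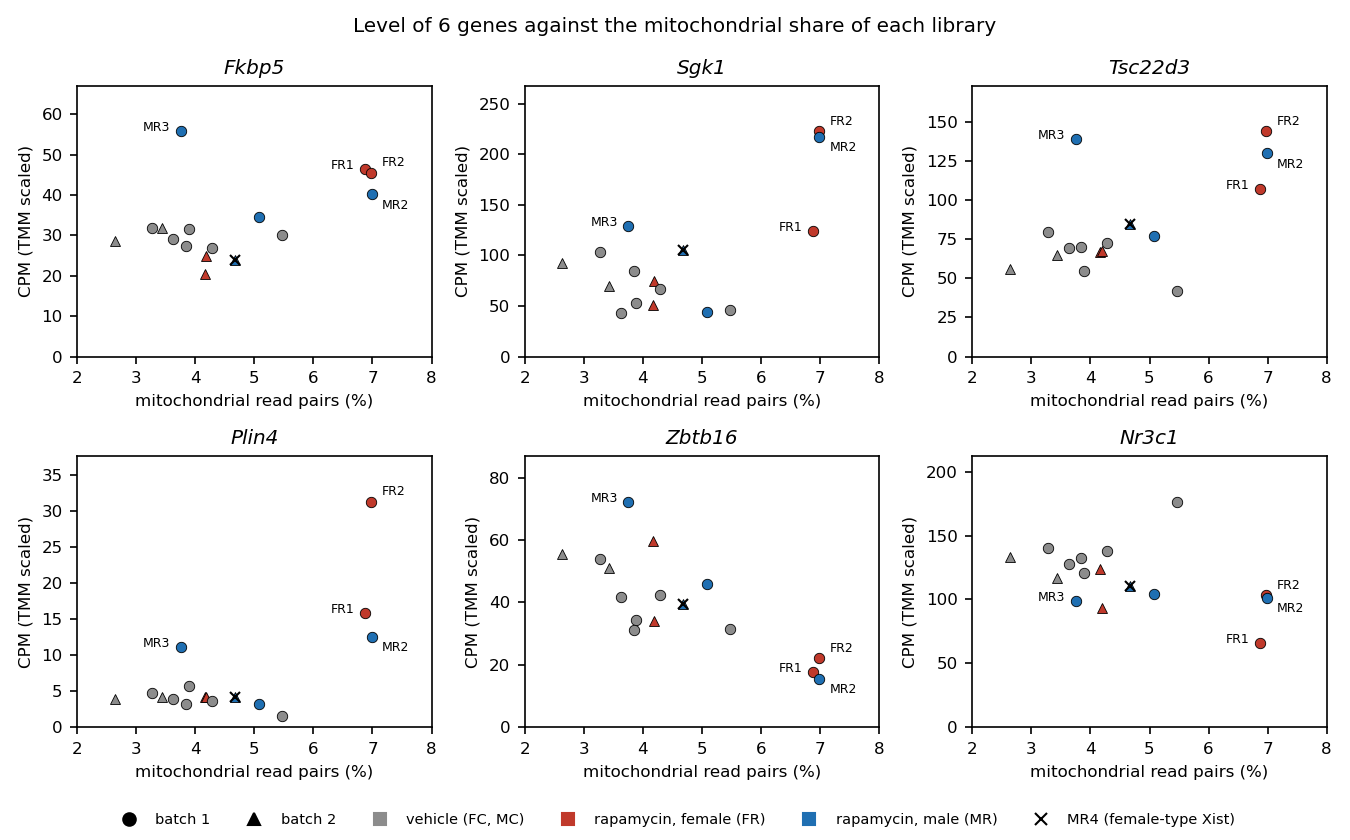
Level of 6 of the genes in CPM against the percentage of read pairs on mitochondrially encoded genes, with 1 point for each library; circles are batch 1 and triangles batch 2, grey is vehicle, red FR and blue MR. FR1, FR2 and MR2 stand at the right, between 6.88% and 6.99%, and MR3 stands at 3.75% with the highest Fkbp5 and Zbtb16 values.

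**Figure D4:**
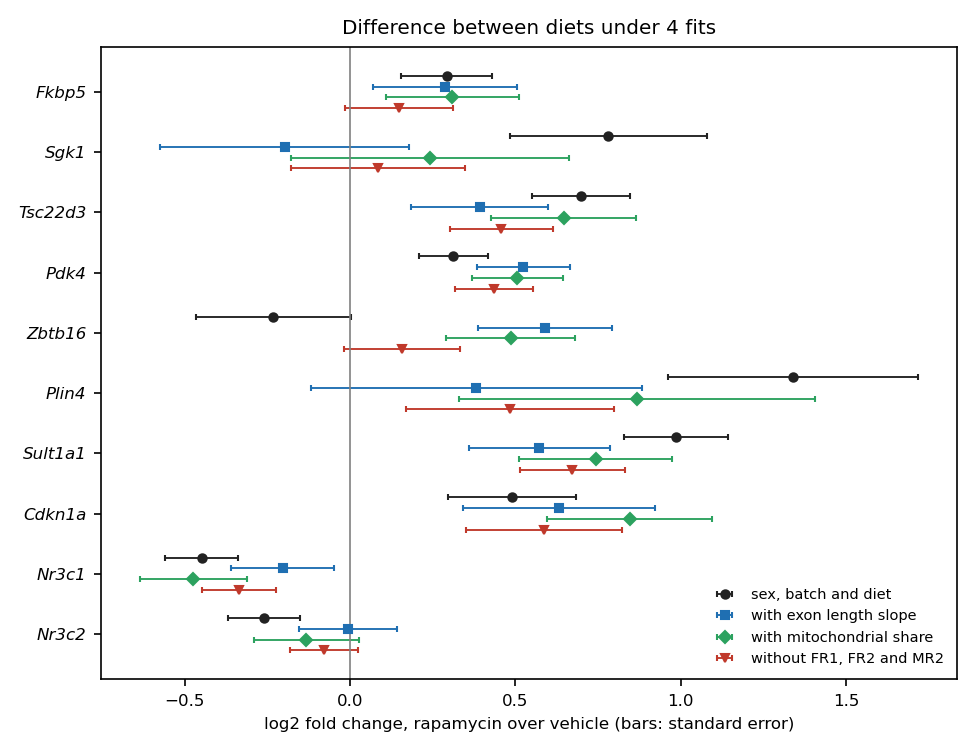
Log2 fold change of each gene, rapamycin over vehicle, with standard errors, in the fit with sex, batch and diet, in the same fit with a term for exon length slope or for mitochondrial share added, and in the fit without FR1, FR2 and MR2. Zbtb16 moved from -0.23 to between 0.16 and 0.59, and Sgk1 from 0.78 to between -0.20 and 0.24.

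Summed marker levels of other cell types were compared as well, since a bulk level can follow tissue composition. Over the 11 lists other than the glutamatergic one, whose calls are not reported, 0 of 67 genes were called between the diets by edgeR, 13 had an unadjusted p under 0.05, and DESeq2 called 5. The 6 endothelial markers summed to between 197 and 294 CPM with vehicle and between 182 and 323 CPM with rapamycin. The 6 oligodendrocyte markers summed to between 3650 and 5911 CPM with vehicle and between 3631 and 9465 CPM with rapamycin, with the highest sum in FR2, where Sgk1 and Plin4 were also highest. The 6 astrocyte markers summed to between 3780 and 5776 CPM and between 3182 and 6186 CPM, and the 6 microglial markers to between 401 and 714 CPM and between 281 and 567 CPM. The 8 circadian genes, which bear on the hour of sampling, summed to between 586 and 903 CPM with vehicle and between 705 and 885 CPM with rapamycin, and the 6 immediate early genes to between 431 and 1503 CPM and between 518 and 2151 CPM. Blood markers summed to at most 32.2 CPM and choroid plexus markers to at most 322 CPM, except for 1919 CPM in MC4. None of the 67 genes was at 0 in every library. The part of any of these in the levels of the 10 genes was not tested.

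The sexes were compared next, as the study examined both. Between the vehicle-fed groups FC and MC, 0 of the 10 genes were called by edgeR and 0 had an unadjusted p under 0.05, and DESeq2 called 0 as well. Of all genes 0.0121% were called. The differences, FC over MC, lay between -0.41 for Zbtb16 (SE 0.33) and 0.07 for Nr3c2 (SE 0.15) on the log2 scale. The interaction of sex and diet, which asks whether the diets differed more in one sex, called 0 of the 10 genes in edgeR and in DESeq2, with 0 at an unadjusted p under 0.05, and 0 of all genes in either (360 had an unadjusted p under 0.05 in edgeR). Its largest estimate was that of Plin4, 0.99 (SE 0.72), with log2 fold changes of 1.83 (SE 0.52) in females and 0.84 (SE 0.51) in males. With SE of this size a difference between the sexes in Plin4 was not detectable, and 1 of the 4 MR libraries is that with a female pattern of Xist. Without MR4 these counts were 0 and 0 as well.

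Within each sex the log2 fold changes of the 8 induced members had a median of 0.62 in females and 0.57 in males. Sult1a1 had 1.14 (SE 0.22) and 0.83 (SE 0.22), Tsc22d3 0.77 (SE 0.22) and 0.63 (SE 0.21), and Nr3c1 -0.52 (SE 0.16) and -0.38 (SE 0.16). In neither sex was any one of the 10 genes called by edgeR, where 0.0121% of all genes were called in females and 0 in males. Over all genes an unadjusted p under 0.05 was reached in edgeR by 3818 in females and 1990 in males, and DESeq2 called 1487 and 18. Among the members these counts were 5 and 4 at the unadjusted p, and 4 and 0 in DESeq2. As with both sexes together, the genes were picked with the diets known, and nothing can be drawn from these counts.

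Whether the members varied together beyond diet and batch was asked with log2 CPM centred within each diet and batch, over the 16 libraries. Fkbp5 had positive Pearson correlations with the other 7 induced members, from 0.13 for Sult1a1 and Zbtb16 to 0.48 for Plin4, and negative ones with Nr3c1 (-0.29) and Nr3c2 (-0.39). None of the 9 passed the permutation test within diet and batch (100000 resamples, two-sided), with adjusted p between 0.591 and 0.779. For Plin4 the permutation p was 0.214 (Spearman's rho 0.31, permutation p = 0.291), and for Nr3c1 the rho was -0.52 (permutation p = 0.0782, adjusted p = 0.620). Left without MR3 and FR4, the libraries farthest from the median of Fkbp5, the correlation with Plin4 was 0.72 (permutation p = 0.0540, adjusted p = 0.164) and that with Zbtb16 was -0.47, of the opposite sign. Over the 28 pairs of the 8 induced members r ran from -0.51 to 0.76 with a median of 0.27, and 21 were positive. All levels of a library share its depth and RNA quality, so these values describe the libraries only.

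The 5 genes of 14680 (mean of at least 1 CPM) most like the average of the 8 induced members, by Pearson r of levels centred within diet and batch over the 16 libraries, were Nfkbia (0.83), Cwc25 (0.81), Ddit4 (0.81), Ttll11 (0.80) and Dapk2 (0.79). These r are the highest of 14680 over 16 libraries, and no chance level was computed. Nothing can thus be drawn from their size. Nfkbia and Ddit4 also stand on the list of other glucocorticoid-induced genes, and that overlap was not tested. Nfkbia had the same 4 highest libraries as Fkbp5, with 37.5 CPM in MR2, 37.0 CPM in FR2, 35.8 CPM in MR3 and 28.9 CPM in FR1, against 11.5 to 23.7 CPM in vehicle libraries. Ddit4 had 73.4 CPM in FR2, 71.9 CPM in MR3, 67.1 CPM in MR2 and 52.0 CPM in FR1, against 19.2 to 46.7 CPM in vehicle libraries.

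Other genes of the glucocorticoid response were taken as a list of 25, of which 24 were tested and Lcn2 was too low. With rapamycin 11 rose and 1 fell at an adjusted p under 0.05 in edgeR's quasi-likelihood test, beside 6.46% and 6.86% of all genes, and 12 did not pass. The median log2 fold change of the list was 0.42 and that of all genes 0.02. Some of these genes, Mt1 and Fam107a among them, were known from earlier results of these libraries when the list was made, so the list is not independent evidence of its direction. The metallothioneins Mt1 and Mt2, which bind zinc, rose by 0.91 (SE 0.15, adjusted p = 0.00879) and 0.93 (SE 0.14, adjusted p = 0.00879) on the log2 scale. Mt1 went from 132 ± 23.4 to 244 ± 91.0 CPM (SD, n = 8 each), and all 8 rapamycin libraries (167 to 364 CPM) lay above all 8 vehicle libraries (97.6 to 166 CPM). Of all genes tested 0.127% lay fully above in this way. Mt1 was listed with earlier results known, so nothing can be drawn from this gap or from its adjusted p. The 3 highest were FR1 (364 CPM), FR2 (356 CPM) and MR2 (340 CPM), and the other 5 rapamycin libraries ran from 167 to 192 CPM. The log2 fold change of Mt1 was 0.25 with the exon length slope as a further term, 0.47 with the mitochondrial share and 0.52 without FR1, FR2 and MR2. Arrdc2, an arrestin-domain protein, rose by 0.93 (SE 0.22, adjusted p = 0.0160), and Nfkbia, the inhibitor of NF-kappa-B, rose by 0.75 (SE 0.17, adjusted p = 0.0160).

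A further 7 genes of the list rose and 1 fell. Fam107a, an actin-associated protein of astrocytes, rose by 0.47 (SE 0.09, adjusted p = 0.0119), from 345 ± 52.0 to 470 ± 59.3 CPM (SD, n = 8 each). Its log2 fold change was 0.74 (SE 0.10, adjusted p = 0.0143 in edgeR) in females and 0.21 (SE 0.10, adjusted p = 0.417) in males, whose MR group includes MR4. With vehicle, FC over MC, it was -0.31 (SE 0.10, adjusted p = 0.999, unadjusted p = 0.00722 in edgeR), which was not a call. The FC libraries enter both this difference and the estimate in females, and low FC values would give both. Neither a lower level with vehicle nor a larger rise in females was thus shown. The interaction of sex and diet, 0.52 (SE 0.14), did not pass over all genes (adjusted p = 0.999, unadjusted p = 0.00207 in edgeR), and Fam107a was the 1 gene of the list with an unadjusted p under 0.05 there. Gjb6, the astrocyte connexin 30, rose by 0.47 (SE 0.09, adjusted p = 0.0119). The transcription factor Klf15 rose by 0.48 (adjusted p = 0.0242), the mTOR complex 1 inhibitor Ddit4 by 0.57 (adjusted p = 0.0328), the lipid transporter Mfsd2a by 0.71 (adjusted p = 0.0298), Hif3a by 0.95 (adjusted p = 0.0462) and Txnip by 0.33 (adjusted p = 0.0396). Bcl6, a transcriptional repressor, fell by 0.31 (adjusted p = 0.0387). Cebpb (0.45, adjusted p = 0.0967), Angptl4 (0.44, adjusted p = 0.192) and Cebpd (0.39, adjusted p = 0.263) had the largest log2 differences among those that did not pass.

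**Figure D5:**
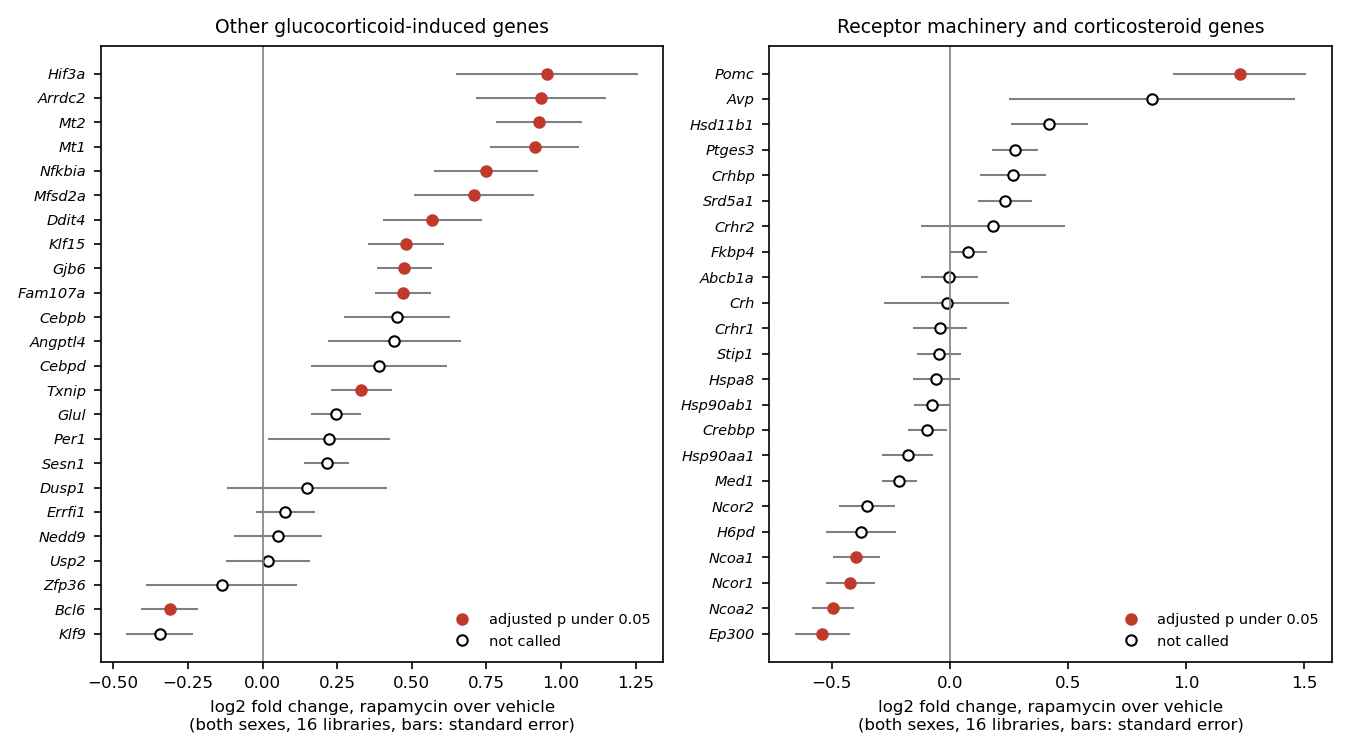
Log2 fold change, rapamycin over vehicle, of the 24 tested genes of the other glucocorticoid-induced list (left) and of the 23 tested genes of the receptor machinery and corticosteroid list (right), with standard errors; red points have an adjusted p under 0.05 in edgeR. On the left 11 of the 12 red points lie above 0, and on the right 4 of the 5 lie below it.

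Calls held in all 16 fits that left out 1 library each for Nfkbia, Mt1, Mt2, Arrdc2, Fam107a and Gjb6. Klf15 was lost without FR2 or MC4, and Ddit4 without any of FC1, FR1, FR2, MC1, MC3, MC4 or MR2. Mfsd2a was lost in 8 of the 16 fits, Bcl6 and Txnip in 10 and Hif3a in 12, with the largest adjusted p, between 0.0731 and 0.101, without FR1 or FR2. In batch 1, 10 of the 24 rose in edgeR (2.92% of all genes) and in batch 2 none did, though 5 had an unadjusted p under 0.05 there. Mt1 had log2 fold changes of 1.03 in batch 1 and 0.64 in batch 2, Fam107a 0.44 and 0.55 and Gjb6 0.46 and 0.50. None of the list was called by edgeR with the exon length slope as a further term, with the mitochondrial share, or without FR1, FR2 and MR2. Unadjusted p under 0.05 were found for 4, 12 and 13 of its genes, and the median log2 fold change was 0.24, 0.45 and 0.32.

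The proteins that receive, license and feed the receptor were followed with a list of 24 genes, of which 23 were tested and Hsd11b2, the enzyme that inactivates corticosterone, was too low. With rapamycin 1 rose and 4 fell, beside 6.46% and 6.86% of all genes, and 18 did not pass. The 6 chaperone genes Hsp90aa1, Hsp90ab1, Hspa8, Ptges3, Stip1 and Fkbp4 had 0 calls in edgeR, 1 with an unadjusted p under 0.05 and 1 call in DESeq2, with a median log2 fold change of -0.05. Among the 7 coregulators the median was -0.40, and each of the 7 had a negative value. Ep300, a histone acetyltransferase, fell by 0.54 (SE 0.12, adjusted p = 0.0140), and the coactivators Ncoa2 and Ncoa1 fell by 0.49 (SE 0.09, adjusted p = 0.0104) and 0.40 (SE 0.10, adjusted p = 0.0210). The corepressor Ncor1 fell by 0.42 (SE 0.10, adjusted p = 0.0201). The calls of Ncoa2 and Ep300 held in every fit that left out 1 library, Ncor1 was lost without FR1, and Ncoa1 was lost without FR1 or FR2. With the exon length slope as a further term the median of the 7 was -0.03, and 6 of the 7 were negative. With the mitochondrial share it was -0.23 and without FR1, FR2 and MR2 -0.25, with all 7 negative in both. None of the 7 was called by edgeR in these 3 fits, and unadjusted p under 0.05 were found for 0, 3 and 4 of them.

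The steroid enzymes and peptides gave 1 call. Pomc, the precursor of ACTH, was low in cortex and rose by 1.23 (SE 0.28, adjusted p = 0.0159), from 1.60 ± 0.488 to 3.68 ± 1.69 CPM (SD, n = 8 each), and remained called whichever library was left out. Vehicle libraries ran from 1.13 to 2.39 CPM and rapamycin libraries from 1.87 to 6.12 CPM, with overlap. Its log2 fold change was 1.49 with the exon length slope, 1.34 with the mitochondrial share and 1.44 without FR1, FR2 and MR2. It was not called by edgeR in these fits, where 0, 0 and 1 of all genes were called. Avp, the vasopressin precursor, had 0.86 (SE 0.60, adjusted p = 0.360), with 0 read pairs in the lowest library. Hsd11b1, which regenerates corticosterone inside cells, had 0.42 (SE 0.16, adjusted p = 0.0888), and H6pd, which supplies it with reduced cofactor, had -0.38 (SE 0.15, adjusted p = 0.0939).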

How the data were processed

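Cortical RNA from 16 5xFAD libraries was analysed from the counts the authors deposited, which are whole read pairs per gene, not normalized. Per the labels and the study's methods, reads (150 bp, paired) were checked with FastQC 0.11.9, trimmed with Trimmomatic 0.39 (first 10 bases removed), aligned to GRCm38 with HISAT2 2.2.1 and counted with featureCounts 2.0.3 without strand, so opposite-strand overlaps and near-identical copies can be undercounted. The submitters' notes also name Trim Galore. The deposited exon length (another value, in bases) was used for levels per kilobase. Totals ran from 16393501 to 20593089, and no columns were left unassigned.

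Counts were scaled by TMM and tested with edgeR 4.0.16 (glmQLFit, glmQLFTest) in R 4.3.3 over the 16553 genes kept by filterByExpr (minimum count 10), with the terms sex, batch and diet, or the 4 groups and batch. A further fit had a diet term in each batch. DESeq2 1.42.0, RLE factors, library totals, no filter, no batch term, the replicate block, single batches, the exon length slope or mitochondrial share as covariates and each library left out were alternatives; the fit by batch and that without libraries over 6% mitochondrial read pairs were chosen after seeing the data. Log2 CPM had a prior count of 2, and correlations were tested with 100000 permutations within diet and batch. Tests were tried on simulated counts. Figures were drawn with Python 3.11.15 and matplotlib 3.10.9.

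The members, lists and tests were chosen with earlier results of these data known, Plin4, Mt1 and Fam107a among them. Genes named from the 2 lists are those with an adjusted p under 0.05 and the 3 largest log2 differences among the rest. The genes most like the members are the 5 highest by r. The library labelled MR4 was kept in its group, and the effect of leaving it out is given. Per-group tables, which repeat the counts, were not used. One marker gene is not reported here, nor are the calls of its list.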

Additional observations from a re-analysis of the deposited data

Results flagged for a closer look

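Zbtb16 in the FC group had 1 library apart from the others. FC4 had 51.2 CPM, and FC1, FC2 and FC3 had 34.2, 31.2 and 31.4 CPM, so that the gap from FC4 to the next took up most of the range of the group. FC4 is the batch 2 library of its group, and MC4, the vehicle library of batch 2 in males, had 55.4 CPM. In all, 40 groups of 4 libraries (10 genes in 4 groups) were looked at for such a gap, and chance gives about 1 in 20.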

How the results depend on the processing

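Depth was even, so it limits Plin4 most, at 1.58 to 31.3 CPM. The members called between the diets numbered 4, and 1 without the batch term. The genes called over the whole table numbered 2205, and 142 without the batch term, 1298 with the replicate block, 1240 in batch 1 alone and 374 with a fold of at least 1.5. Of the other glucocorticoid-induced genes 12 were called, 4 without the batch term and 6 with the fold threshold. Of the machinery list 5 were called, 9 with DESeq2, 8 without the low-count filter, 1 without the batch term and 1 with the fold threshold. In batch 2 alone, with the exon length slope and with the mitochondrial share, each of these 4 counts was 0. Without FR1, FR2 and MR2 the 4 counts were 0, except for 1 over the whole table. The replicate block left 4 members, 9 and 5 genes called. The replicate numbers were not taken as pairs, since not every same-numbered pair had correlated deviations over 0.1 (18 of 21 did, from -0.16 to 0.67). Other pairs of the same batch had a median of 0.107. The 15 same-numbered pairs of batch 1 ran from -0.16 to 0.51, and the rest are of replicate 4, all in batch 2. Still, 12 of 16 libraries were closest to their own number, a hint from the data that some share more than a number. Whether the numbers mark pairs was not settled. FR5 has a number of its own and drops out of the replicate block fit. The median of the 8 induced members was 0.16 in batch 2 alone. In females 4 members were called with DESeq2, beside 1487 of all 16548 genes, and 7 without the low-count filter, beside 1678 of 30248. In males 5 were called without the filter, beside 526 of 30248. Nothing can be drawn from these member counts, since the genes were picked with the diets known. Plin4 reached -0.033 within batch 2 in the fit by batch. Without MR3 and FR4 the correlation of Fkbp5 was -0.029 with Pdk4 and -0.47 with Zbtb16. With 1 library left out, the counts ran from 719 (without FR1) to 3352 (without FR4) over the whole table, 3 to 6 for the members, 6 (without FR2) to 15 (without FR4) for the other glucocorticoid-induced genes, 3 (without FR1) to 8 (without FR4) for the machinery list and 0 to 5 (without FR4) for the members in females, and the median from 0.49 to 0.68. Without MR4 the 4 counts were 1591, 4, 11 and 5. In the comparison of FC with MC, the interaction and the males they were 0 in each. The causes of these changes were not tested.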

Other observations

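Lcn2, the lipocalin that reactive astrocytes and other cells release in inflammation, is on the list of other glucocorticoid-induced genes but was too low to be tested, and it is named here after its values were seen. MR2 had 17.1 CPM of it, while vehicle libraries ran from 0.109 to 0.396 CPM and the next highest library, MR1, had 0.801 CPM.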
